A study of Danio rerio with 9 samples.

Results

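The vacuolar proton pump (V-ATPase) acidifies lysosomes, endosomes and synaptic vesicles. Its V1 sector, on the cytosolic side, hydrolyses ATP and turns a rotor, and its V0 sector, in the membrane, moves protons through a ring of c subunits. Cathepsins are proteases of the lysosome, most of which work best at the acid pH that the pump sets up. Genes of both kinds were taken from a zebrafish RNA sequencing table by symbol alone, as those starting with atp6v and those starting with cts followed by a letter. The rule found 36 of 21109 genes or transcripts. 21 encode pump subunits, 12 of V1 and 9 of V0. The other 15 are cathepsins, of which 13 are cysteine proteases, ctsd is an aspartic protease and ctsa a serine carboxypeptidase.

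The series has 9 libraries of polyA-selected RNA, 3 in each of 3 groups, from embryonic tissue that the labels call trunk. The groups received a control morpholino (control MO), a morpholino against the splicing factor gene sf3b1 (sf3b1 MO), or that morpholino together with the arsenic sulfide As2S2 (sf3b1 MO + As2S2). A morpholino is an antisense oligonucleotide that blocks translation or splicing of a transcript for a limited time and leaves the gene intact. Strain, age, dose and duration are not given in the labels used here, no group received As2S2 without the sf3b1 morpholino, and the labels do not tie replicates to different clutches, so the p-values rest on the spread among libraries, which may be technical.

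Total counts were 21942696 to 28702980 in the control MO and sf3b1 MO libraries, and the depth of the As2S2 libraries is not known. The rod opsin rho stood at 929 ± 49.3 FPKM in control MO, 809 ± 12.2 in sf3b1 MO and 70.81 ± 2.198 with As2S2 (SD, n = 3), so the libraries labelled trunk held eye transcripts. rho was far lower with As2S2, and whether the groups held like amounts of eye tissue was not tested. FPKM is a level per length of transcript and per size of library. CPM are counts scaled to the total of the library after TMM adjustment. The targeted gene went opposite ways in the deposited units: sf3b1 counts rose from 541 ± 5.92 to 877 ± 20.3 CPM in the libraries labelled sf3b1 MO, while its FPKM fell from 171 ± 4.68 to 108 ± 1.75. The group is therefore named below by its label. For the pump and cathepsin genes the units ran in parallel. With the median difference over all genes taken off, no log2 ratio of sf3b1 MO to control MO differed between raw counts and FPKM by more than 0.0874.

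35 of the 36 genes had values in all 9 libraries, and all 35 passed the filters on low values of every comparison. The exception was ctslb (ENSDARG00000039173), a cathepsin L gene known for its expression in the zebrafish hatching gland, which was listed only in the As2S2 libraries, at 0.604, 0.756 and 1.099 FPKM, and was not tested. The most abundant were the 2 genes of the V0 proteolipid subunit c. In control MO, atp6v0cb (ENSDARG00000036577) stood at 303, 302 and 317 FPKM and atp6v0ca (ENSDARG00000057853) at 278, 278 and 292 FPKM. These ranges do not overlap, and together the pair made up 41.0% to 42.7% of the summed FPKM of all pump genes. A pump carries several c subunits in its ring and a single copy of most other V0 subunits. The third was atp6v1e1b (ENSDARG00000030694), which encodes the stator subunit E of V1, at 147, 148 and 150 FPKM.

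Cathepsin L led the proteases: ctsla (ENSDARG00000007836) stood at 93.1, 85.1 and 86.4 FPKM in control MO, followed without overlap by ctsf (ENSDARG00000063095) at 63.6, 66.8 and 67.1 FPKM and by the aspartic protease ctsd (ENSDARG00000057698) at 42.0, 40.3 and 41.0 FPKM. ctsba, a cathepsin B gene, came next at 30.6, 33.7 and 31.1 FPKM. The least abundant with values in all libraries were ctss1, ctss2.1, ctss2.2, ctso and ctsl.1, whose control MO means lay between 0.750 and 1.27 FPKM. ctss2.1 and ctss2.2 (cathepsin S, in mammals a protease of antigen processing) are listed next to each other in a RefSeq annotation, with ctsk next to ctss2.1. Reads may have been split between such copies, so their values are uncertain. The median coefficient of variation among replicates over the members was 5.26% in control MO, 7.65% in sf3b1 MO and 8.66% with As2S2, and the largest was 40.1%, for ctsk with As2S2.

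**Figure D1:**
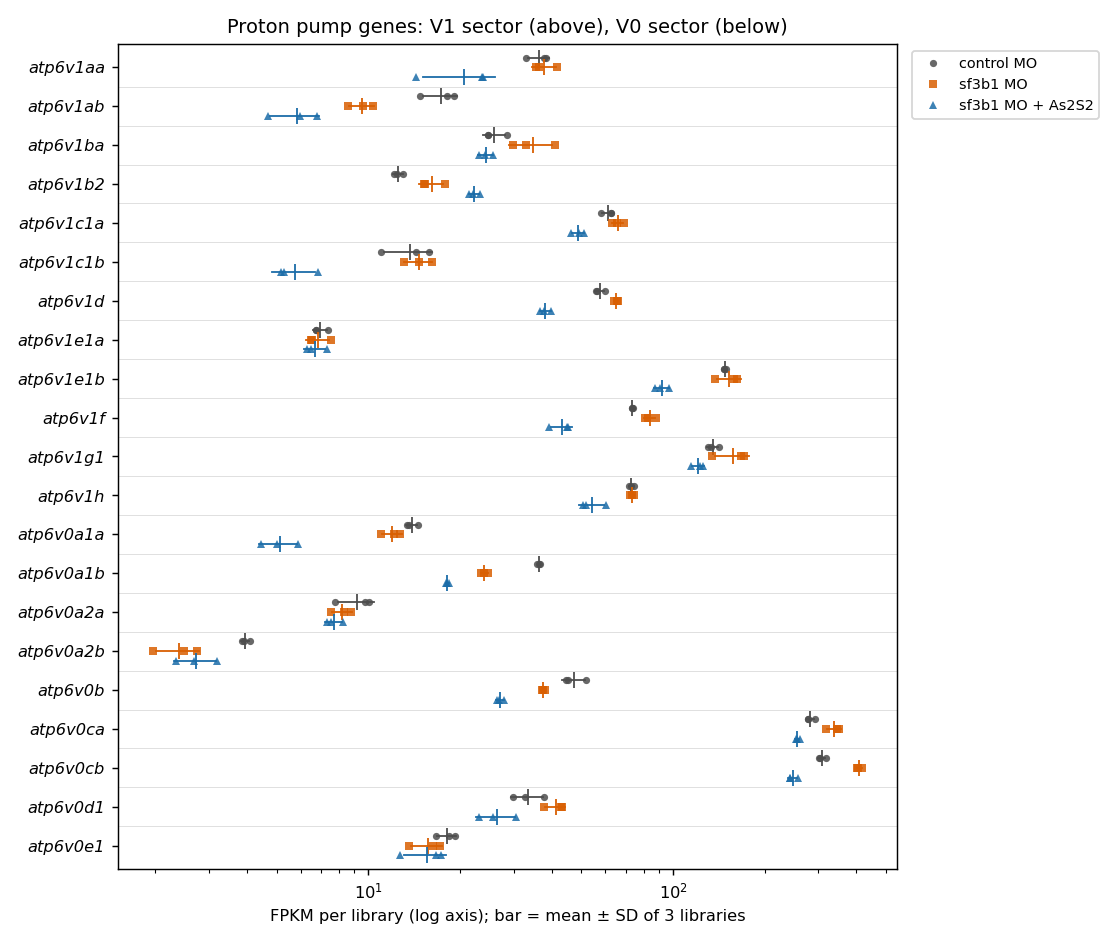
Level of each of the 21 proton pump genes in the 9 libraries, in FPKM on a log axis, with the V1 genes above the V0 genes and bars for the mean and SD of 3 libraries. The c subunit genes atp6v0cb and atp6v0ca lie highest, and atp6v1b2 is the gene whose As2S2 libraries (21.4 to 23.2 FPKM) lie above its other libraries.

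**Figure D2:**
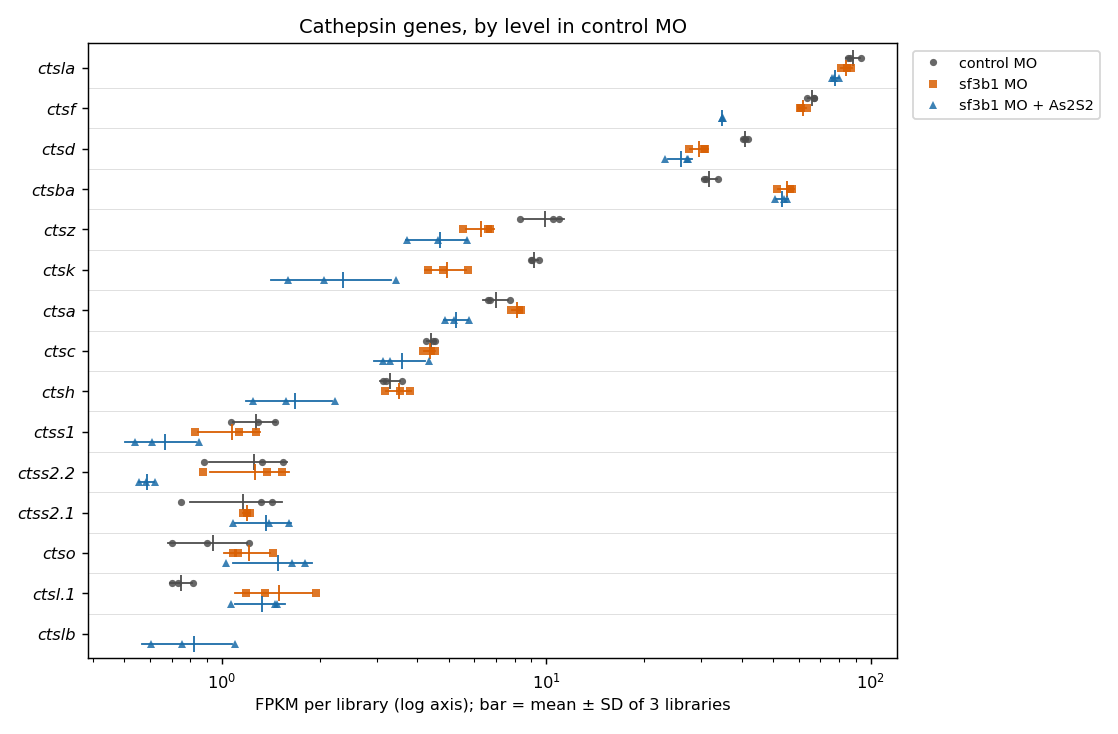
Level of each of the 15 cathepsin genes in the 9 libraries, in FPKM on a log axis, with bars for the mean and SD of 3 libraries. ctsba stood higher and ctsd, ctsz and ctsk lower in both sf3b1 morpholino groups than in control MO, and ctslb has As2S2 values only.

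The first comparison asks how these genes stood after the sf3b1 morpholino alone. In the libraries labelled sf3b1 MO the c subunit genes of the pump and cathepsin B were higher. Lower were 3 of the 4 atp6v0a genes (subunit a of V0), a catalytic A subunit gene and cathepsins D, K and Z. By edgeR's quasi-likelihood test on counts, 9 of 35 genes rose and 8 fell at an adjusted p of 0.05 over all genes. That is 48.6% of the members, beside 51.1% of all 20723 genes tested (25.2% higher and 25.9% lower), so the share called is near that of any gene. The groups did not overlap for 11 higher and 8 lower members, beside 29.3% and 30.8% of all genes (60.1% together). The median log2 fold change was 0.07 over the members and -0.02 over all genes.

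In V1, 4 of 12 genes rose (33.3%), 1 fell (8.33%) and 7 were not called, beside 25.2% higher and 25.9% lower of all genes. The gene that fell was atp6v1ab (ENSDARG00000076318), 1 of the 2 genes of the catalytic subunit A. It measured 53.2, 50.02 and 40.8 CPM in control MO and 24.1, 27.0 and 29.4 CPM in sf3b1 MO. Every sf3b1 MO library lay below every control library, and the log2 fold change was -0.84 (SE 0.11, adjusted p = 0.00011). The other A gene, atp6v1aa (ENSDARG00000034534), had 109, 93.0 and 106 CPM against 104, 102 and 121 CPM, which overlap, and was not called (log2 fold change 0.09, adjusted p = 0.41). The rises were small: atp6v1b2 (ENSDARG00000043465), a nucleotide-binding B subunit, by 0.39, atp6v1f and atp6v1d, which are parts of the rotor, by 0.22 and 0.21, and the stator gene atp6v1c1a by 0.14 on the log2 scale. The last of these was no longer called without control MO replicate 2 (adjusted p = 0.089), without sf3b1 MO replicate 2 (adjusted p = 0.084) or with limma on the FPKM of the same libraries (adjusted p = 0.092).

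In V0 the 9 genes split by subunit, with 3 that rose (33.3%) and 4 that fell (44.4%), beside 25.2% and 25.9% of all genes. Subunit c rose in both genes. atp6v0cb went from 578, 572 and 598 CPM to 801, 783 and 782 CPM (0.44, SE 0.03, adjusted p = 2.6e-08), and atp6v0ca from 397, 393 and 407 CPM to 502, 516 and 462 CPM (0.31, adjusted p = 2.2e-05). No library of either group overlapped with the other for either gene. atp6v0d1, whose subunit d joins the ring to the rotor, rose by 0.33 (adjusted p = 0.032), a call lost without control MO replicate 3 (adjusted p = 0.10), sf3b1 MO replicate 2 (0.11) or sf3b1 MO replicate 3 (0.12) and with the replicate number as a block (0.14). The a subunits form the path of the protons beside the ring and place the pump in particular membranes. Of their genes named atp6v0a, 3 of 4 were lower. The a subunit genes tcirg1a and tcirg1b, listed below among the pump partners, went the other way. tcirg1a was called higher (0.38, adjusted p = 0.0029), and tcirg1b was not called (0.31, adjusted p = 0.076). atp6v0a1b (ENSDARG00000015174) fell from 120, 119 and 116 CPM to 79.1, 77.7 and 82.3 CPM (log2 fold change -0.57, SE 0.04, adjusted p = 1.7e-07). atp6v0a2b (ENSDARG00000035565) fell from 17.3, 16.8 and 17.7 CPM to 8.75, 12.2 and 11.2 CPM (-0.69, SE 0.12, adjusted p = 0.00046). In both, the groups stood well apart. atp6v0a1a fell by 0.18 (adjusted p = 0.033), but was not called without control MO replicate 1 (adjusted p = 0.069), control MO replicate 2 (0.14), sf3b1 MO replicate 1 (0.061) or sf3b1 MO replicate 3 (0.12), nor by DESeq2 (0.051). atp6v0b, the c'' subunit of the ring, fell by 0.31, and atp6v0a2a and atp6v0e1 were not called.

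Summed, the 4 atp6v0a genes went from 61.8, 64.9 and 63.1 FPKM in control MO to 46.8, 46.4 and 46.5 FPKM in sf3b1 MO. The c subunit genes went from 581, 580 and 609 FPKM to 763, 757 and 721 FPKM. The share of the c subunit in the summed pump FPKM went from 41.0% to 42.7% up to 46.3% to 46.7%. V1 over V0, a ratio of summed FPKM, was 0.909, 0.875 and 0.855 in control MO and 0.812, 0.817 and 0.797 in sf3b1 MO. These sums weight abundant genes most, are levels of RNA and not of assembled pumps, and were not tested, since 3 against 3 libraries cannot give an exact two-sided permutation p below 0.10. Neuronal marker genes moved with the c subunit: 14 of 17 were called higher (82.4%, beside 25.2% of all genes) and 1 lower. Their sum went from between 2248 and 2260 to between 2690 and 2737 FPKM. Of the 21 pump genes, 7 rose (33.3%) and 5 fell (23.8%), beside 25.2% and 25.9% of all genes. Both a1 genes, atp6v0a1a and atp6v0a1b, were among those that fell. The part of neurons in the pump values was not tested. In bulk RNA, fewer cells of a type and less RNA per cell cannot be told apart.

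Among cathepsins, 2 of 14 rose (14.3%), 3 fell (21.4%) and 9 were not called, beside 25.2% higher and 25.9% lower of all genes. ctsba (ENSDARG00000055120) measured 47.6, 52.1 and 47.9 CPM in control MO and 80.7, 90.3 and 89.5 CPM in sf3b1 MO, without overlap (log2 fold change 0.82, SE 0.06, adjusted p = 1.2e-07). ctsk (ENSDARG00000040251), in mammals the collagen-degrading protease of osteoclasts, fell from 17.3, 16.3 and 16.4 CPM to 7.93, 9.39 and 10.7 CPM (-0.84, SE 0.12, adjusted p = 7.5e-05). ctsz (ENSDARG00000043081), a carboxypeptidase, fell from 19.3, 18.5 and 14.6 CPM to 11.8, 12.1 and 10.1 CPM (-0.63, SE 0.13, adjusted p = 0.001). Every library of ctsk and ctsz labelled sf3b1 MO lay below all control libraries. ctsd fell from 81.6, 77.5 and 78.7 CPM to 53.9, 60.4 and 60.8 CPM (-0.44, SE 0.06, adjusted p = 3e-05), again with no overlap. ctsl.1, below the level set for naming and named here after its values were seen, rose by 0.95 from a mean of 1.36 CPM, a call lost without sf3b1 MO replicate 2 (adjusted p = 0.060). The abundant ctsla (log2 fold change -0.01) and ctsf (-0.06) were not called. The summed cathepsin FPKM overlapped between the groups, at 265 to 269 in control MO and 257 to 269 in sf3b1 MO.

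Markers of macrophages and microglia, cells rich in cathepsins, numbered 14 of 22 in the table. 2 were called higher (14.3%) and 3 lower (21.4%), beside 25.2% and 25.9% of all genes. Their sum was 87.7 to 88.6 FPKM in control MO and 72.3 to 82.7 FPKM in sf3b1 MO. apoeb made up most of that sum (65.4 ± 0.830 and 57.6 ± 3.45 FPKM) and was called lower (edgeR, adjusted p = 0.0072). Also called lower were csf1ra (0.674 ± 0.1064 to 0.247 ± 0.02747 FPKM, adjusted p = 0.00086) and apoc1 (10.17 ± 0.5666 to 6.533 ± 1.491 FPKM, adjusted p = 0.011). The markers called higher were mfap4.1 (1.53 ± 0.517 to 3.57 ± 1.06 FPKM) and marco (0.444 ± 0.0227 to 1.18 ± 0.363 FPKM). Of 8 osteoclast markers, ctsk itself aside, tnfrsf11a and mmp9 had values in all libraries and summed to 3.54 to 3.75 FPKM against 4.62 to 5.92 FPKM. They moved apart: tnfrsf11a was called lower (1.43 ± 0.213 to 0.918 ± 0.137 FPKM, edgeR, adjusted p = 0.018), as ctsk was, and mmp9 higher (2.21 ± 0.172 to 4.30 ± 0.661 FPKM, adjusted p = 6.3e-05). The part of these cells in the cathepsin values was not tested.

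The second comparison asks what differed when As2S2 was given with the sf3b1 morpholino. Pump genes were lower with As2S2 in both sectors, led by a stator and an a subunit gene, and atp6v1b2 alone was called higher. Among cathepsins, ctsk, ctsf, ctsh and ctsa had the largest falls on the log2(FPKM + 1) scale and ctsba was not called. As a ratio of means, the scarce ctss2.2, at 46.6% of sf3b1 MO, stood lowest. By limma on log2(FPKM + 1), 25 of 35 members fell and 1 rose, 74.3% of them in all, beside 61.8% of all 18013 genes tested (44.5% lower, 17.3% higher). The groups did not overlap for 23 lower and 1 higher member, beside 46.8% and 19.1% of all genes (65.9% together). The median gene of the whole table stood at -0.20 on the log2 scale, so log2 fold changes of single genes are given here relative to that median, and calls refer to the unshifted values. With each library centred on its median, 18 members were lower and 4 higher, beside 27.4% and 30.2% of all genes (57.6% together). The median over the members was -0.22 relative to the median gene.

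Of the V1 genes, 10 of 12 fell (83.3%, beside 44.5% of all genes), and 8 after centring (66.7%, beside 27.4%). The largest difference was in atp6v1c1b (ENSDARG00000035880), a stator subunit C gene, at 14.6, 13.1 and 16.2 FPKM in sf3b1 MO and 6.83, 5.29 and 5.16 FPKM with As2S2 (log2 fold change -1.01, SE 0.14, adjusted p = 6.1e-05). The As2S2 mean was 39.4% of the sf3b1 MO mean. atp6v1f (ENSDARG00000045543) of the rotor went from 87.9, 82.7 and 81.1 FPKM to 39.2, 45.4 and 45.0 FPKM (-0.74, SE 0.06, adjusted p = 8.2e-07). The catalytic gene atp6v1aa went from 36.4, 35.5 and 41.6 FPKM to 14.3, 23.8 and 23.7 FPKM (-0.68, SE 0.17, adjusted p = 0.0015). In all 3, every As2S2 library was below every sf3b1 MO library, although the As2S2 libraries of atp6v1aa themselves differed, the lowest being replicate 1. atp6v1d, atp6v1e1b and atp6v1ab also fell, by 0.56, 0.53 and 0.43. Against these stood atp6v1b2, which rose from 15.2, 17.8 and 15.3 FPKM to 23.2, 22.1 and 21.4 FPKM without overlap (0.65, SE 0.07, adjusted p = 0.00033). The V1 gene that was not called was atp6v1e1a, the minor E gene.

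Of the V0 genes, 6 of 9 fell (66.7%), also after centring, beside 44.5% of all genes (27.4% after centring). atp6v0a1a (ENSDARG00000020847) went from 12.2, 12.7 and 11.0 FPKM to 5.02, 5.90 and 4.44 FPKM, which is 42.8% of the sf3b1 MO mean (-0.89, SE 0.09, adjusted p = 7.9e-06). atp6v0cb went from 417, 405 and 403 FPKM to 257, 243 and 242 FPKM (-0.52, SE 0.03, adjusted p = 1.5e-07), and atp6v0ca from 346, 352 and 319 FPKM to 255, 260 and 253 FPKM (-0.20, SE 0.04, adjusted p = 2.3e-05). The groups were apart for each of these genes, and the fall of both c subunit genes was also called after centring (adjusted p = 1.1e-06 for atp6v0cb and 0.0038 for atp6v0ca). Against control MO they were called lower with As2S2 on the unshifted scale, but after centring atp6v0cb was not called (adjusted p = 0.59) and atp6v0ca was called higher. atp6v0a2a, atp6v0a2b and atp6v0e1 were not called. After centring, atp6v0a2b was called higher, by 0.36 (adjusted p = 0.023). The share of the c subunit in the summed pump FPKM was 47.0%, 45.6% and 46.1% with As2S2, and V1 over V0 was 0.771, 0.818 and 0.801. Both overlapped with sf3b1 MO. Neuronal markers again moved with the c subunit genes: 14 of 17 were called lower (82.4%, beside 44.5% of all genes) and 1 higher. Their sum was 1896 to 1932 FPKM with As2S2. Their part was not tested.

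Of the 14 cathepsins, 9 fell (64.3%, beside 44.5% of all genes) and none rose. After centring 4 were lower (28.6%) and 2 higher (14.3%), beside 27.4% and 30.2% of all genes, so the share called lower was then near that of any gene. ctsf stood at 63.5, 61.1 and 60.7 FPKM in sf3b1 MO and 34.7, 34.9 and 34.8 FPKM with As2S2 (-0.61, SE 0.03, adjusted p = 9.8e-08). ctsa (ENSDARG00000098114), whose product also shields lysosomal sialidase and beta-galactosidase, went from 8.34, 7.78 and 8.24 FPKM to 5.77, 5.20 and 4.87 FPKM (-0.34, SE 0.08, adjusted p = 0.00031). Neither gene's libraries overlapped between the groups. ctsz went from 6.59, 6.70 and 5.55 FPKM to 4.64, 5.72 and 3.72 FPKM, which overlap (-0.16, SE 0.14, adjusted p = 0.048), and its call was lost without As2S2 replicate 1 (adjusted p = 0.092) or 3 (0.16) and without sf3b1 MO replicate 1 (0.12) or 2 (0.13), after centring (0.43) and in a fit of the 2 groups alone (0.055). ctsla, at 80.7, 84.8 and 87.0 FPKM against 75.8, 77.0 and 80.0 FPKM, was called lower (adjusted p = 0.046) but stood 0.09 above the median gene. Its call was lost without As2S2 replicate 1 (0.13) or 2 (0.10) and without sf3b1 MO replicate 2 (0.10) or 3 (0.14). ctsd was called lower as narrowly (adjusted p = 0.035), at 0.01 above the median gene, and lost the call without As2S2 replicate 3 (0.11) or sf3b1 MO replicate 2 or 3 (0.10 each) and in a fit of the 2 groups alone (0.067). ctsba, at 51.5, 57.2 and 56.5 FPKM against 55.1, 50.8 and 54.1 FPKM, overlapped and was not called (adjusted p = 0.51).

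**Figure D3:**
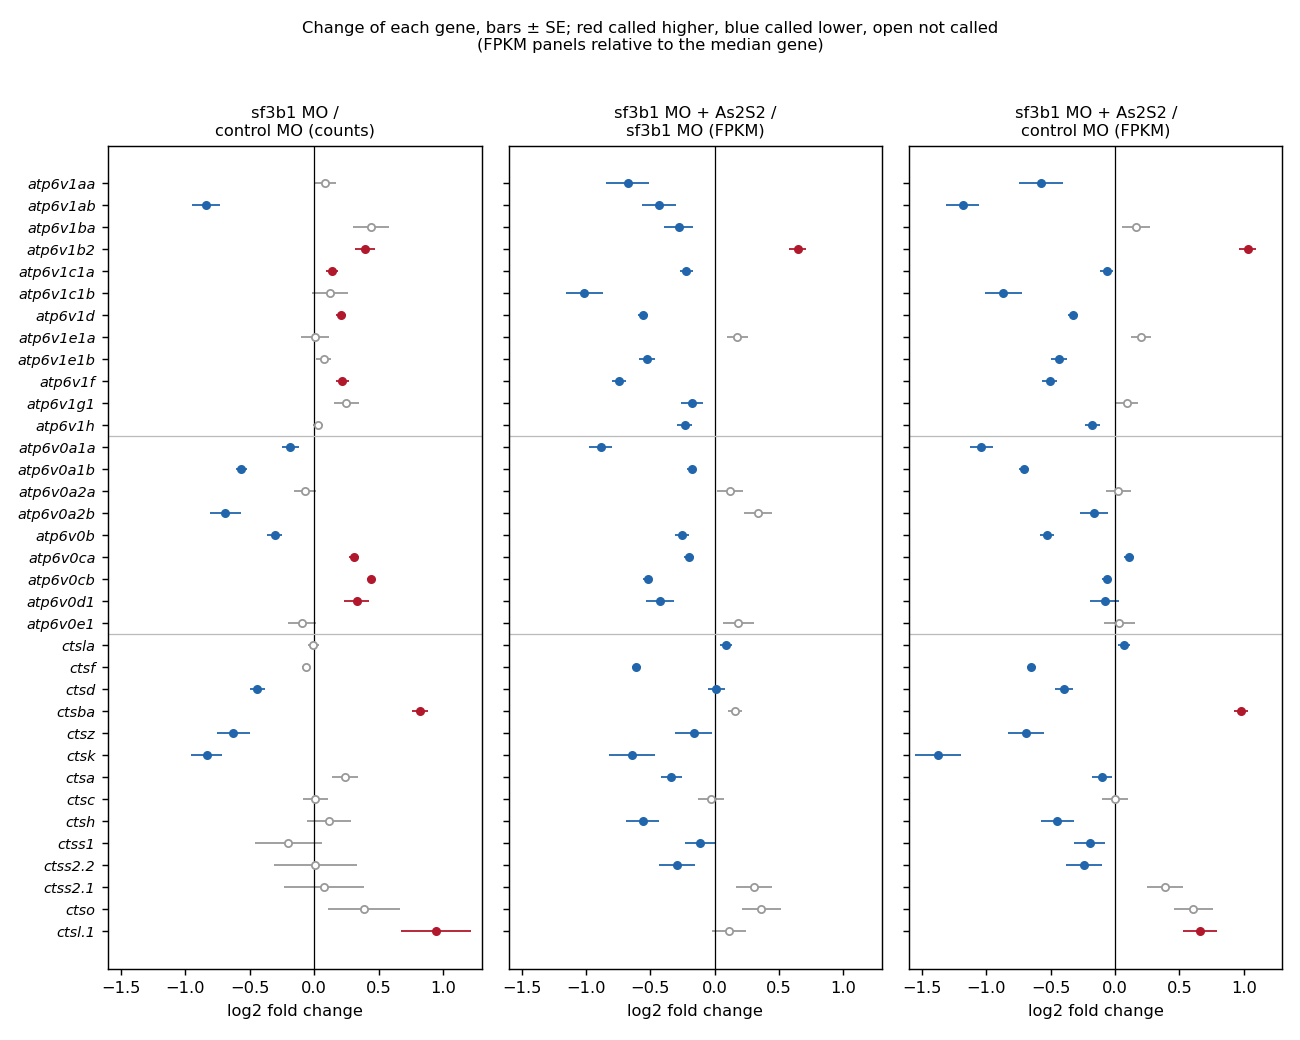
Log2 fold change of each of the 35 tested genes in the 3 comparisons, with bars of 1 SE, relative to the median gene where As2S2 libraries are compared. Filled points passed an adjusted p of 0.05 on the unshifted values, which is why some called lower, such as atp6v0ca and ctsla, lie right of 0, and atp6v1b2 is the only gene called higher in all 3 panels.

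The third comparison sets the group with As2S2 against control MO and shares its libraries with both comparisons above, so values are given side by side. 24 members were lower and 3 higher than control MO, 77.1% in all, beside 68% of all genes (48.5% lower, 19.5% higher). The groups did not overlap for 24 lower and 3 higher members, beside 51.1% and 21% of all genes (72.1% together). The median gene stood at -0.25. With each library centred on its median, 14 members were lower and 7 higher, beside 28% and 34.8% of all genes (62.9% together).

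The genes furthest below control MO were ctsk and atp6v1ab. ctsk went from 9.47, 8.95 and 9.06 FPKM in control MO through 4.31, 4.79 and 5.72 FPKM in sf3b1 MO to 1.604, 3.44 and 2.07 FPKM with As2S2. The As2S2 mean was 25.9% of the control MO mean (-1.38, SE 0.18, adjusted p = 3e-05). atp6v1ab went from 19.1, 18.1 and 14.8 FPKM through 8.58, 9.58 and 10.4 FPKM to 5.95, 4.70 and 6.79 FPKM, or 33.5% of control MO (-1.18, SE 0.13, adjusted p = 9.5e-06). For both genes the 3 groups stood apart in that order. ctsz had 11.0, 10.5 and 8.31 FPKM in control MO and was at 47.4% of it with As2S2 (-0.70, SE 0.14, adjusted p = 0.00027), without overlap.

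ctsf, atp6v0a1a and atp6v1c1b had sf3b1 MO means of 95.7%, 88.0% and 109% of control MO in counts, and stood well below control MO with As2S2. ctsf had 63.6, 66.8 and 67.1 FPKM in control MO, and with As2S2 it was at 52.9% of that mean (-0.65, SE 0.03, adjusted p = 2.9e-08). atp6v0a1a had 13.6, 14.6 and 13.4 FPKM in control MO and was at 36.9% of it (-1.04, SE 0.09, adjusted p = 1.9e-06). atp6v1c1b had 11.0, 15.8 and 14.3 FPKM in control MO and was at 42.0% of it (-0.87, SE 0.14, adjusted p = 8.4e-05). None of these As2S2 libraries reached the lowest control library.

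The genes called higher than control MO were atp6v1b2, ctsba and ctsl.1. atp6v1b2 rose from 13.0, 12.4 and 12.1 FPKM in control MO to 1.78 times that mean (1.03, SE 0.07, adjusted p = 6.3e-06). ctsba rose from 30.6, 33.7 and 31.1 FPKM to 1.68 times that mean (0.98, SE 0.06, adjusted p = 3e-06). For both, all As2S2 libraries lay above all control libraries. ctsl.1 was higher by 0.66 (adjusted p = 0.016), a call lost without As2S2 replicate 1 (adjusted p = 0.052) or 3 (0.055). atp6v0ca was called lower on the unshifted scale and higher after centring (0.15, adjusted p = 0.0076), so its direction against control MO depends on the scaling. The call of atp6v0d1, whose groups overlapped, was lost after centring (0.79), without control MO replicate 1 (0.090) and without As2S2 replicate 2 (0.087) or 3 (0.065). Centring changed the call of 13 of the 35 members in this comparison.

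Several pump subunits are encoded by pairs of genes, and the share of each in its pair's summed FPKM does not depend on a common scaling of the library. The share of atp6v1aa among the A genes was 67.7% ± 3.72 in control MO, 79.9% ± 1.08 in sf3b1 MO and 77.3% ± 6.48 with As2S2 (SD, n = 3). Both sf3b1 morpholino groups had higher means than control MO, but the As2S2 libraries overlapped with control MO. The share of atp6v1ba among the B genes, where atp6v1b2 is the other, was 67.4% ± 1.13, 68.0% ± 4.19 and 52.2% ± 1.02, with all As2S2 libraries below the rest. The sum of the A genes was 57.4, 51.1 and 52.6 FPKM in control MO, 45.0, 45.1 and 52.0 FPKM in sf3b1 MO and 20.3, 28.5 and 30.4 FPKM with As2S2. The sum of the B genes was 41.4, 37.0 and 36.8 FPKM, 45.1, 50.8 and 56.1 FPKM, and 48.9, 45.1 and 45.5 FPKM. A and B subunits alternate in equal numbers in the V1 head. The A sum was above the B sum in every control MO library, and below it in every sf3b1 MO library, in replicate 1 by under 1 FPKM, and in every As2S2 library.

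The share of atp6v0a1a in the a1 pair, in mammals the isoform of neurons, was 27.7% ± 0.805 in control MO, 33.3% ± 2.21 in sf3b1 MO and 21.9% ± 2.51 with As2S2, so that no 2 groups overlapped. The share of atp6v0ca in the c pair was 47.9% ± 0.0487, 45.3% ± 1.15 and 50.9% ± 0.978, also with no overlap. atp6v1c1a held 81.7% ± 3.18, 81.8% ± 2.004 and 89.5% ± 1.53 of the C pair, and atp6v1e1a 4.48% ± 0.247, 4.29% ± 0.404 and 6.80% ± 0.277 of the E pair. In both, the As2S2 libraries lay above the rest. atp6v0a2a held 69.8% ± 3.02, 77.4% ± 4.17 and 73.9% ± 2.26 of the a2 pair. An exact two-sided permutation test of 3 against 3 libraries cannot go below p = 0.10, so these shares are given as values, and reads shared between near-identical paralogs, such as the c subunit genes, could move them.

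**Figure D4:**
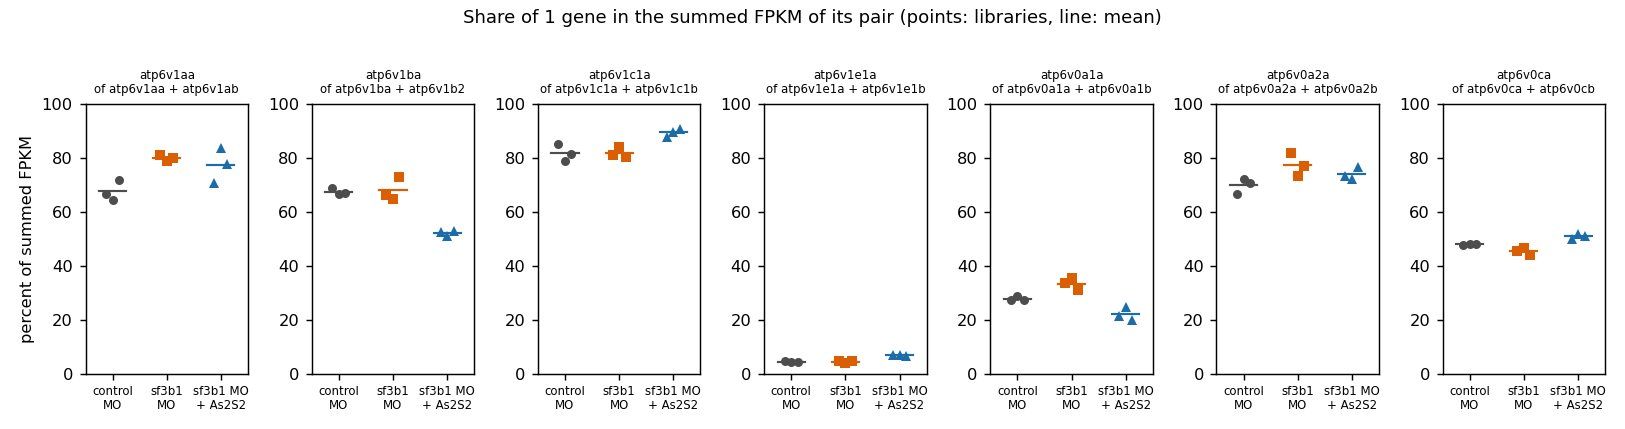
Share of the first gene in the summed FPKM of its pair of pump subunit genes, in percent, for each of the 9 libraries and 7 pairs. The As2S2 libraries lie below the rest for atp6v1ba (51.1% to 53.0%) and above the rest for atp6v1c1a and atp6v1e1a.

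Other genes of the lysosome were counted from 6 lists of pathway genes, to be read beside the shares of all genes. These were 25.2% higher and 25.9% lower for sf3b1 MO against control MO. With As2S2 against sf3b1 MO they were 17.3% higher and 44.5% lower, or 30.2% and 27.4% after centring. The 14 pump partners are accessory proteins, regulators of assembly and the a subunit genes tcirg1a and tcirg1b. Of these, 4 rose and 4 fell in sf3b1 MO, 28.6% each and so near the share of all genes. With As2S2, 11 were lower (78.6%) and 1 higher than in sf3b1 MO (5, or 35.7%, and 1 after centring). The accessory protein genes diverged: atp6ap1a went from 60.2 ± 1.07 to 74.5 ± 4.102 FPKM and then to 38.6 ± 1.48 FPKM with As2S2, and atp6ap1b from 8.86 ± 0.723 to 5.09 ± 0.277 and then to 6.07 ± 0.517 FPKM. Each of these steps passed the test, with adjusted p-values of 1.3e-05 and 2.6e-07 for atp6ap1a and of 2.5e-05 and 0.044 for atp6ap1b (edgeR, then limma). oxr1b, of a family that binds the V1 sector, went from 12.3 ± 0.154 to 17.7 ± 0.735 and to 6.504 ± 1.22 FPKM.

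Among 37 lysosomal hydrolases and their activators, 8 rose (21.6%) and 9 fell (24.3%) in sf3b1 MO, beside 25.2% and 25.9% of all genes. With As2S2, 11 of 35 were lower (31.4%, beside 44.5% of all genes) and 2 higher than in sf3b1 MO, and after centring 7 were lower and 8 higher. hexb, a beta-hexosaminidase, fell with As2S2 from 24.1 ± 1.23 to 13.9 ± 0.497 FPKM, and aga, which cleaves sugars from asparagine, from 3.40 ± 0.296 to 1.23 ± 0.0611 FPKM. Both passed the test (limma, adjusted p = 1.7e-06 and 6.7e-06). Of 27 lysosomal membrane proteins, 5 rose (18.5%) and 7 fell (25.9%) in sf3b1 MO, and with As2S2 14 of 26 were lower (53.8%) than in sf3b1 MO and 0 higher (8 lower and 6 higher after centring). lamp2, a main glycoprotein of that membrane, stood at 29.5 ± 0.588 FPKM in control MO, 20.3 ± 0.709 in sf3b1 MO and 14.7 ± 1.39 with As2S2, and each step passed the test (adjusted p = 1.5e-05 and 0.00028). lamp1b instead rose from 20.6 ± 0.796 to 26.5 ± 0.494 FPKM in sf3b1 MO (edgeR, adjusted p = 4.9e-05). With As2S2 it stood at 18.4 ± 0.722 FPKM, lower than in sf3b1 MO (limma, adjusted p = 1.4e-05).

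Of 32 autophagy genes, 13 rose (40.6%) and 2 fell (6.25%) in sf3b1 MO, beside 25.2% and 25.9% of all genes. With As2S2, 4 were higher and 16 lower than in sf3b1 MO (8 and 11 after centring), near the shares of all genes (17.3% and 44.5%, or 30.2% and 27.4%). Against control MO 5 were higher and 15 lower (16 and 6 after centring), beside 19.5% and 48.5% of all genes (34.8% and 28%). sqstm1, the cargo receptor p62, went from 10.4 ± 0.738 FPKM in control MO to 14.2 ± 1.47 in sf3b1 MO and 24.3 ± 1.05 with As2S2, which was 1.40 above control MO on the log2 scale relative to the median gene (limma, adjusted p = 1.4e-06). gabarapb, an Atg8 family gene, went from 92.6 ± 2.67 to 108 ± 2.28 and 128 ± 2.61 FPKM. Among the genes lower with As2S2 than in sf3b1 MO, ulk2 went from 17.2 ± 0.651 to 21.1 ± 0.876 and 10.8 ± 0.592 FPKM. map1lc3a went from 37.2 ± 1.557 to 42.85 ± 1.996 and 29.1 ± 1.39 FPKM. Of 13 transcription factors of the MiT/TFE family and their regulators, 2 rose (15.4%) and 6 fell (46.2%) in sf3b1 MO, and with As2S2 4 of 11 (36.4%) were lower than in sf3b1 MO (0 lower and 2 higher after centring). tfeb, a known activator of lysosomal genes in mammals, stood at 1.69 ± 0.223, 1.04 ± 0.111 and 0.618 ± 0.155 FPKM. Of 7 cathepsin inhibitor genes, 1 rose and 2 fell in sf3b1 MO, and 4 were lower with As2S2 (2 after centring). The one that rose was cst3, cystatin C, an inhibitor of cysteine cathepsins, from 58.1 ± 0.953 to 108 ± 2.60 FPKM (edgeR, adjusted p = 5e-10), and with As2S2 it was at 48.8 ± 1.83 FPKM.

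Further cell type markers moved beside these genes, and their part was not tested. Counts called are to be read beside the shares of all genes. These were 25.2% higher and 25.9% lower in sf3b1 MO. With As2S2 they were 17.3% and 44.5% against sf3b1 MO, and 19.5% and 48.5% against control MO. Markers of ionocytes, among them skin cells that carry the pump on their surface, were found for 6 of 14 genes without atp6v1aa. Their sum fell from between 39.9 and 41.3 FPKM in control MO to between 22.8 and 23.8 in sf3b1 MO and 14.6 to 17.0 with As2S2. In sf3b1 MO, 4 of the 6 were called lower and 0 higher. In FPKM, rhbg had the largest fall (15.8 ± 0.584 to 7.15 ± 0.569 FPKM). On the log2 scale slc12a10.2 (-2.118) and ca2 (-1.635) fell further than rhbg (-1.115). The scarce gcm2 (0.935 ± 0.0703 to 0.807 ± 0.157 FPKM) and rhcgb (0.781 ± 0.229 to 0.774 ± 0.183 FPKM) were not called (edgeR, adjusted p = 0.59 and 0.96). With As2S2, 2 of the 3 tested were called lower than in sf3b1 MO (1 after centring). Macrophage and microglia markers summed to 77.2 to 86.5 FPKM with As2S2, above the lowest sf3b1 MO library and below every control library, and the osteoclast markers to 3.11 to 3.87 FPKM. Hatching gland markers, 4 of 10 without ctslb, summed to 150 to 156, 135 to 140 and 105 to 112 FPKM, mostly from xbp1, a gene of secretory cells in general (139.5 ± 3.34, 131 ± 1.56 and 99.0 ± 4.06 FPKM). Against sf3b1 MO, 2 of the 4 were called higher with As2S2, he1.1 (0.904 ± 0.345 to 4.06 ± 0.184 FPKM) and klf17 (0.889 ± 0.322 to 1.38 ± 0.195 FPKM), and xbp1 lower. Against control MO, 3 of the 4 were called lower with As2S2 (2 after centring), and 1, he1.1, higher. klf17 stood at 2.33 ± 0.0470 FPKM in control MO. agr2 went from 9.40 ± 0.657 FPKM in control MO to 4.08 ± 0.951 in sf3b1 MO and 3.48 ± 0.366 with As2S2. Markers of lysosome-rich enterocytes and kidney tubule, 8 of 13, summed to 15.9 to 17.2, 15.9 to 17.6 and 12.7 to 14.4 FPKM. Those of the yolk syncytial layer and liver, 10 of 14, summed to 242 to 244, 80.0 to 87.0 and 172 to 224 FPKM. In control MO most of that sum was rbp4 (196 ± 4.65 FPKM, then 38.29 ± 3.004 and 17.0 ± 1.68 FPKM). Of the 10 markers, 8 were called higher and 1 lower with As2S2 against sf3b1 MO, and 6 higher and 2 lower against control MO. apoa2, for one, went from 10.6 ± 0.785 and 15.06 ± 1.295 to 77.8 ± 0.723 FPKM. Muscle genes, 18 of 20, summed to 32870 to 33590, 15490 to 16030 and 8138 to 8284 FPKM. No marker in these sums was listed at 0 in all libraries.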

How the data were processed

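The authors deposited 1 table, with whole-number counts per gene for 6 libraries (control MO, sf3b1 MO) and FPKM for all 9. It has 21137 lines, 14 blank and 14 with stray text. Columns headed wt and ko were read as control MO and sf3b1 MO. For the members, the deposited mean column matched a recomputed mean of log2(FPKM + 1) over the 6 libraries of control MO and sf3b1 MO. Neither the log2 fold changes nor the p-values the authors deposited were used. The submitters' processing notes name fastp 0.22.0, DESeq2 and GRCz11. The sources used here name no aligner or counting program. How the As2S2 columns were normalized is not known either, as they come with another list of genes (20146, of which 19760 also have control MO and sf3b1 MO values).

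The counts of sf3b1 MO and control MO were compared with edgeR 4.0.16 (quasi-likelihood, robust, TMM, default filter, which removed 0 genes). Both As2S2 comparisons were tested with limma 3.58.1 (variance trend, 1 fit of 9 libraries) on log2(FPKM + 1), pseudocount 1, for genes that reached 1 FPKM in at least 3 libraries. Fold changes on that scale understate the change of low genes. P-values were adjusted by Benjamini-Hochberg over all genes tested, with a threshold of 0.05. Alternatives were DESeq2 1.42.0, limma on the FPKM of the same libraries, no or stricter filters, pseudocount 0.1, centred libraries, a replicate block and leaving out each library. The tests were checked on simulated data.

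The members, the 14 context lists (216 of 286 symbols found) and the tests were chosen with earlier results of these data known. The genes given with the value in every library follow a rule: per comparison and class, up to 4 called members of largest change whose mean was 4 CPM or FPKM or more, and the 3 highest in control MO. Other members are given by counts or in brief, and up to 3 called genes per context list and comparison may be named. Beyond this rule, tcirg1a, tcirg1b, gcm2, rhcgb and, for sf3b1 MO against control MO, apoeb and apoc1 were named after their values were seen. No coordinates are printed, as the table gives none.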

Additional observations from a re-analysis of the deposited data

How the results depend on the processing

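With each As2S2 comparison centred on the libraries' medians, 4 members were called higher than in sf3b1 MO in place of 1, 7 higher than in control MO in place of 3, and 14 lower than in control MO in place of 24. Centring turned the sign of 7 members against sf3b1 MO, 4 of them called on neither scale. The other 3 stood, centred, at 0.181 (ctsba, adjusted p = 0.018), 0.037 (ctsd, 0.67) and 0.111 (ctsla, 0.075). Against control MO it turned 8, 5 of them called on neither scale, and the other 3 stood at 0.152 (atp6v0ca, 0.0076), 0.113 (ctsla, 0.064) and 0.245 (atp6v1e1a, 0.025). The centring itself moves the reference to the median gene. Leaving out each library in turn gave 14 to 18 calls for sf3b1 MO against control MO (6 to 11 higher, 7 to 8 lower), 22 to 26 for As2S2 against sf3b1 MO (1 higher, 21 to 25 lower) and 25 to 28 for As2S2 against control MO (2 to 4 higher, 23 to 24 lower). Some members not called in the main fit were called when 1 library was left out. For sf3b1 MO against control MO these were atp6v1ba without sf3b1 MO replicate 1 (adjusted p = 0.016) or 3 (0.010), atp6v1g1 and atp6v1e1b without sf3b1 MO replicate 3 (4.2e-05 and 0.0036) and ctsa without control MO replicate 3 (0.034). With As2S2 they were ctsc without As2S2 replicate 2 (0.0054 against sf3b1 MO, 0.0037 against control MO), and against control MO atp6v0a2a without control MO replicate 1 (0.0082) and ctso without control MO replicate 2 (0.032) or As2S2 replicate 1 (0.011). The fall of ctss1 against sf3b1 MO was lost without As2S2 replicate 1 (0.12) or 3 (0.10) and without sf3b1 MO replicate 2 (0.10) or 3 (0.13). DESeq2 called 18 members (11 higher, 7 lower) where edgeR called 17, with atp6v1ba and atp6v1g1 gained and atp6v0a1a lost. Also called with all libraries in were atp6v1ba by limma on FPKM and ctsc with As2S2 against control MO with pseudocount 0.1. A fit of the 2 groups alone also called atp6v1g1 for As2S2 against control MO. After centring, ctso was called in both As2S2 comparisons, and ctss2.1 was called higher with As2S2 than in control MO (limma, adjusted p = 0.018). The other settings kept these counts within 1.5 times. Same-numbered libraries did not visibly deviate together (correlations of -0.04 to 0.06, beside -0.10 to 0.11 for other pairs). A small shared deviation could be missed, so this check cannot tell whether the numbers pair them. With the replicate block the counts were 17, 24 and 28 where they had been 17, 26 and 27, with ctsd and ctsla no longer called for As2S2 against sf3b1 MO, atp6v1g1 newly called for both groups against control MO, and atp6v0d1 lost for sf3b1 MO against control MO. As depth is not known with As2S2, no counting error can be given for genes near 1 FPKM, such as ctslb.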
